A study of Mus musculus with 2 samples.

Results

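The genes described here are transglutaminases and other proteins that assemble the cornified envelope of the epidermis, followed in mouse epidermis with and without the vitamin D receptor in keratinocytes. They were 10 listed genes, namely Tgm1, Tgm3, Tgm5, Ppl, Evpl, Casp14, Asprv1, Cnfn, Cdsn and Sbsn. The genes were chosen by name, with earlier results of these data known. Probes were matched to 9 of them, 13 probes in all, among 17872 gene symbols and 25697 probes on the array. Asprv1 was matched through its transcript accession, since the array design names it 2300003P22Rik. Evpl was not analysed here.

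The KO group was epidermis of mice with floxed Vdr alleles (VDR fl/fl) and a Cre transgene under the promoter of keratin 14, a gene of basal keratinocytes and of the outer root sheath of hair follicles. The CON group was epidermis of littermates with the same floxed alleles and no Cre. All mice were C57BL6 and at postnatal day 5, and the back skin was split with dispase. Each genotype was 1 pool of RNA from 3 mice on 1 bead array, so the comparison had no spread between replicates, no test and a precision limited by the number of arrays. Which pool is KO and which is CON rests on the labels, since the Vdr probes, described at the end, could not check them.

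The cornified envelope is the crosslinked protein shell that replaces the plasma membrane when keratinocytes of the granular layer die and become corneocytes. Periplakin (Ppl) and envoplakin (Evpl) line the inner face of the membrane first, and transglutaminases, which need calcium, then join glutamine to lysine side chains of involucrin, loricrin and small proline-rich proteins. Proteases process filaggrin beneath the envelope, corneodesmosin (Cdsn) glues neighbouring corneocytes together, and ceramides are bound to the outside. The vitamin D receptor is a nuclear receptor that, with its ligand and its partner RXR, is known to promote keratinocyte differentiation.

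None of the 9 measured members differed by 1.5-fold between the pools on its brightest probe, and 8 of 9 read slightly lower in KO. The median log2 difference of KO minus CON over the 9 genes, each by its brightest probe after background correction and quantile normalization, was -0.08, with a range of -0.36 to 0.03. Among 8865 genes detected in at least 1 pool (detection p-value under 0.01) 5.38% passed the 1.5-fold rule in either direction and the median was 0.00. Of those genes 49.5% had a log2 difference below 0. In the authors' normalized values 0 of 9 members passed and 0.711% of detected genes did. All 13 probes were detected in both pools. In pooled epidermis, fewer cells of a type and less RNA per cell cannot be told apart.

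Probes of the same gene gave a measure of how far probe readings differed within these arrays. It holds no variation between mice, pools or labelling, so it is not the spread of a KO against CON difference. In 949 genes with a pair of bright probes (log2 signal averaging 8 or more) the log2 differences of both probes lay a median of 0.13 apart, and 90% lay within 0.36. In size, the log2 difference of 5 of the 9 members was no larger than that median. None was larger than the upper value, with Sbsn (-0.36) level with it. A difference between pools and a gap between probes are unlike quantities, so this gives scale only. Among 5106 genes of that brightness, 2.13% passed the 1.5-fold rule and the middle 90% lay between -0.33 and 0.37, so that Sbsn alone among the members lay outside that range.

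**Figure D1:**
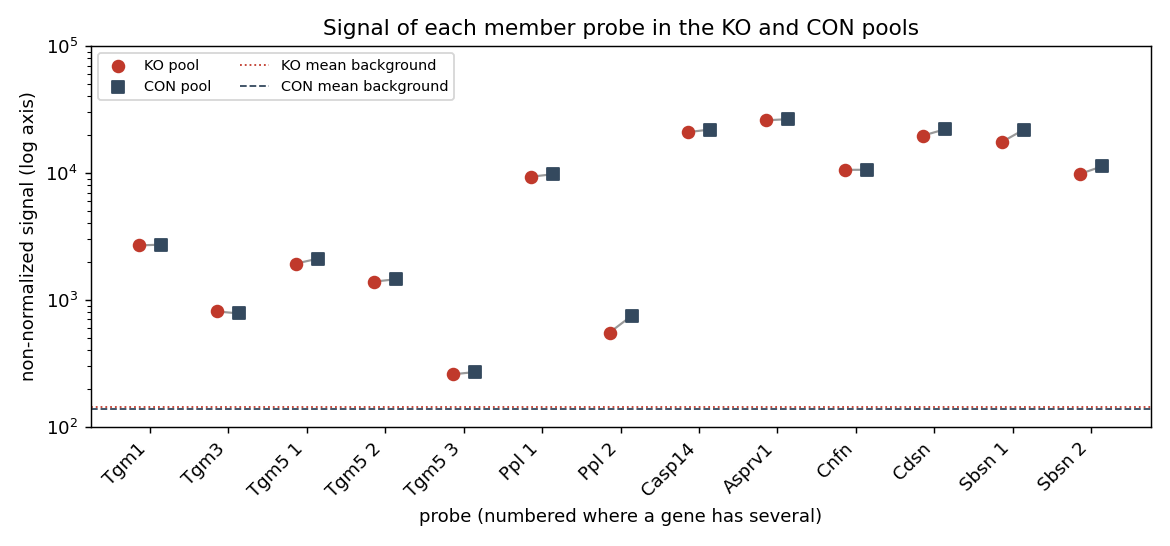
Non-normalized signal (log axis) of each of the 13 member probes, 1 point for the KO pool and 1 for the CON pool, with the mean background of each array as horizontal lines. The KO point lies below the CON point for every probe except that of Tgm3, and the widest gaps are those of the second Ppl probe (552.1 in KO and 746.7 in CON) and the first Sbsn probe (17518.9 in KO and 21906.3 in CON). Heights of different probes are not comparable, since probes differ in affinity.

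The epidermal transglutaminases read nearly the same in both pools. Tgm1, the membrane-anchored keratinocyte enzyme whose loss causes lamellar ichthyosis in humans, had a raw signal of 2681.3 in KO and 2718.4 in CON on its single probe (chromosome 14, probe ILMN_2743642). That is a log2 difference of -0.08, and 35.1% of detected genes had a lower value. Tgm3, a cytosolic enzyme that is cut by proteases to become active and also works in hair follicles, read 809.2 in KO and 780.7 in CON (chromosome 2, probe ILMN_2777363). Its log2 difference of 0.03 was the one value above 0 among the members, and it was 0.00 after scaling to the 75th percentile of signal.

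Tgm5 is expressed in the suprabasal layers, and its mutations cause acral peeling skin syndrome in humans. Its brightest probe read 1927.5 in KO and 2107.0 in CON, a log2 difference of -0.17 (chromosome 2, probe ILMN_2690144). The second probe read 1391.1 in KO and 1451.9 in CON, with a log2 difference of -0.12. The dimmest read 258.6 in KO and 269.6 in CON, with -0.22. All 3 probes thus read lower in KO, within 0.10 of each other on the log2 scale, and the largest difference was 1.17-fold. The dimmest probe stood at -0.12 in the authors' normalized values, from which no background was subtracted.

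Promoter windows of the transglutaminases are shown because the vitamin D receptor binds hexamers of the kind AGGTCA or GGTTCA, and because Tgm1 and Tgm3 differ in what their windows hold. The windows are the 250 bases before the start in RefSeq's GRCm38.p6 annotation, 5′ to 3′ on the strand of the gene. Capitals mark matches, on either strand, to AGGTCA, to GGTTCA, to TATAAA, the letters of a TATA box, or, as in AP-1 sites, TGANTCA, and no matches overlapped. The Tgm1 window is at chr14:55713493-55713742 on the minus strand and the Tgm3 window at chr2:130012090-130012339 on the plus strand.
Tgm1: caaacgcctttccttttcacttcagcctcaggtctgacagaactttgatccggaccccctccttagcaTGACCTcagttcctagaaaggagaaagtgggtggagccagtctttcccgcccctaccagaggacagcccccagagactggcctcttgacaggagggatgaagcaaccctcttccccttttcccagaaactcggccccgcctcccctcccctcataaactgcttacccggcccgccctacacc
Tgm3: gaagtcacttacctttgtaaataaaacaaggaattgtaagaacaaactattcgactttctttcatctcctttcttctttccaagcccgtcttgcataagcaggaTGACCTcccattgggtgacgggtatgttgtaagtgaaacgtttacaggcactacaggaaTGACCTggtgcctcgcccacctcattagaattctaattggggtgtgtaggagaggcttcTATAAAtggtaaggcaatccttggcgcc
The Tgm1 window held 1 AGGTCA on the opposite strand (read as TGACCT), 182 bases before the start. A second annotated Tgm1 start had no match. The Tgm3 window held 2 such hexamers, 146 and 87 bases before the start, and a TATAAA at 28 bases. Over all 32851 windows in the table, 14% held AGGTCA and 12.4% held TATAAA. The Tgm5 window held none of the motifs. A match is a string of letters and not a shown binding site.

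The other transglutaminases gave little signal apart from Tgm2, the tissue transglutaminase found in many cell types. Tgm2 read 320.6 in KO and 474.8 in CON, a log2 difference of -0.92 or 1.89-fold lower, where 2.28% of detected genes were at least 1.5-fold lower. In the authors' normalized values it was 1.49-fold lower, just under the rule, and it rests on 1 probe. Tgm4, Tgm6, F13a1, F13b and Epb42 were detected in neither pool. Beside Tgm2, 6 markers of fibroblasts and dermis had a summed raw signal of 1367.5 in KO and 1438.8 in CON. Much of that sum is background, which averaged 141.9 per probe in KO and 137.9 in CON. Of these markers Dcn and Col1a1 were detected. Dcn read 613.4 in KO and 646.3 in CON, a log2 difference of -0.16. Col1a1 was 1.78-fold lower at a dim signal of 173.1 in KO and 202.3 in CON, and 1.24-fold lower in the authors' normalized values. Their part in the Tgm2 value was not tested.

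Genes that control transglutaminase activity did not pass the 1.5-fold rule. Of 7 such genes 6 were detected, 3 with values above 0 and 3 below, and their median log2 difference was 0.02. Capn2, the calcium-activated protease calpain 2, had the largest value at 0.48, with raw signals of 325.7 in KO and 258.8 in CON, and its other probes stood at 0.51 and 0.37. Ctsl, the gene of cathepsin L, a protease that processes the Tgm3 enzyme, had a log2 difference of -0.10, and Cst6, whose product cystatin M/E inhibits cathepsin L, was detected in neither pool.

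Ppl encodes periplakin, a cytolinker that ties the early envelope to desmosomes and keratin filaments. Its brighter probe read 9327.0 in KO and 9759.1 in CON, a log2 difference of -0.13 (chromosome 16, probe ILMN_3155363). Its dimmer probe read 552.1 in KO and 746.7 in CON, a log2 difference of -0.59 (probe ILMN_3076424). The dimmer probe thus narrowly passed the 1.5-fold rule, and 2.27% of detected genes had a lower value, while the brighter one was 1.1-fold lower. In the authors' normalized values the dimmer probe read 545.3 in KO and 749.1 in CON, a log2 difference of -0.46, below the limit. The gap of 0.45 between both probes on the log2 scale was wider than in 90% of genes with a pair of bright probes. Both probes carry the same transcript accession, and their positions in the transcript are not stated in the files.

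Other plakins, large linker proteins of junctions and filaments, were listed together with Kazn, whose product kazrin is no plakin but binds periplakin. Of these 5 detected genes 0 passed the rule, 3 lay above 0 and 2, Plec and Kazn, below, with a median log2 difference of 0.04. Eppk1, the gene of epiplakin, had the largest value at 0.37, with 6813.6 in KO and 5132.1 in CON. Dsp, the gene of desmoplakin, stood at 0.04. Plec, the gene of plectin, stood at -0.11. Kazn had -0.36 at a dim signal of 171.0 in KO and 177.9 in CON, and -0.12 in the authors' normalized values.

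The filaggrin proteases of the list were bright and nearly equal between the pools. Casp14, a caspase largely confined to cornifying epithelia that takes part in filaggrin breakdown, read 20936.7 in KO and 21949.1 in CON (chromosome 10, probe ILMN_1241322). Its log2 difference was -0.07. Asprv1, an aspartic protease of retroviral origin that cuts the linkers of profilaggrin in mice, read 25956.7 in KO and 26494.7 in CON (chromosome 6, probe ILMN_2699923). Its log2 difference was -0.06, and 39.5% of detected genes had a lower value.

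Signals of this height lie near the top of the array. Only 30 of 25697 probes were brighter than that of Asprv1 in KO and 24 in CON, and the highest signal on the array was 35763.7 in KO and 35931.3 in CON. Of the 13 member probes 5 read over 10000 in both pools, namely those of Casp14, Asprv1, Cnfn, Cdsn and the brighter probe of Sbsn. Whether such signals were close to saturation, which would narrow a difference between pools, was not tested.

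Other genes of profilaggrin processing mostly had negative values as well. Of 11 detected genes 10 had negative log2 differences, where 49.5% of all detected genes did. Their median was -0.22, and 1 passed the rule. That gene was Padi3, an arginine deiminase that was not detected in KO at the limit used and was at least 1.82-fold lower on the background-corrected scale, where 2.28% of detected genes were at least 1.5-fold lower. Its log2 difference was -0.33 in the authors' normalized values. The membrane proteases St14 (matriptase) and Prss8 (prostasin) stood at -0.46 and -0.42 on their brightest probes, and Padi1 at -0.43. The second probe of St14 stood at -0.34, but that of Prss8 read 1000.2 in KO and 1000.1 in CON, a log2 difference of -0.05, so the probes of Prss8 did not read alike. Padi3 also works in hair follicles. Of 6 hair follicle markers measured, 4 were detected, 3 of them with values below 0, and the list had summed raw signals of 11443.6 in KO and 13348.8 in CON. Krt35 alone passed the rule, as 1.79-fold lower, while Krt71 stood at -0.29, Msx2 at -0.46 and Sox9 at 0.14. Krt25 and Lhx2 were detected in neither pool. The part of follicle content in the Padi3 value was not tested.

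Cnfn, the gene of cornifelin, a small protein built into the envelope, read nearly the same in both pools. Its probe had a signal of 10563.4 in KO and 10577.7 in CON, with a log2 difference of -0.03 (chromosome 7, probe ILMN_3043109). Without normalization the ratio of KO to CON was 0.999.

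Cdsn encodes corneodesmosin, the adhesive glycoprotein that holds corneocytes together until it is cleaved and the cells shed. Its probe read 19692.8 in KO and 22111.6 in CON, a log2 difference of -0.14 or 1.1-fold lower (chromosome 17, probe ILMN_2796382). Among detected genes 26.3% had a lower value. Scaling to the 75th percentile gave -0.22, the lowest value for Cdsn among the settings tried. Of 8 other detected corneodesmosome genes 0 passed the rule, 5 lay below 0 and the median log2 difference was -0.09. The kallikrein genes that act on corneodesmosin went apart, with -0.26 for Klk5, which was counted in the profilaggrin list too, and 0.22 for Klk7.

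Sbsn, the gene of suprabasin, a secreted protein of differentiating keratinocytes, had the lowest value of the members by brightest probe. Its brighter probe read 17518.9 in KO and 21906.3 in CON, a log2 difference of -0.36 or 1.28-fold lower (chromosome 7, probe ILMN_2744374). Its second probe read 9828.0 in KO and 11275.0 in CON, a log2 difference of -0.26 or 1.2-fold lower (probe ILMN_2671302). Both probes read lower in KO and lay 0.10 apart on the log2 scale. Over all detected genes 8.22% had a value lower than that of the brighter probe, and among the 5106 bright genes the share was 4.19%. By brightest probe Sbsn was the one member past a looser limit of 0.32 on the log2 scale, which 9.97% of detected genes passed as lower in KO. With the probes of each gene averaged, Ppl stood at -0.36 and passed this limit, while Sbsn stood at -0.31 and did not. The Sbsn value stayed between -0.38 and -0.31 over the settings tried.

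The Sbsn promoter window is shown because this gene had the lowest value by brightest probe. Its window also held the most kinds of motif together with that of Tgm3. It lies at chr7:30751221-30751470 on the plus strand, from RefSeq's GRCm38.p6 annotation, with the same marks as above.
Sbsn: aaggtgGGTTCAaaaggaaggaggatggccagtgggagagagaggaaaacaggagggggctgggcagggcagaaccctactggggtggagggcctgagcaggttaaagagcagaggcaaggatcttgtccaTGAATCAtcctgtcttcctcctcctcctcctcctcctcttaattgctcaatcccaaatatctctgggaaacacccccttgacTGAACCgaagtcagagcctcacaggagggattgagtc
It held GGTTCA on the gene's strand 244 bases before the start and on the opposite strand (read as TGAACC) at 37 bases. A TGANTCA match stood at 119 bases. Of all windows 8.85% held GGTTCA and 6.75% held TGANTCA. Of the 10 windows of 8 members in the table, 4 held either hexamer, against 21.5% of all windows, and the fourth besides those shown belonged to Casp14. No member window held a pair of these hexamers as a direct repeat 3 bases apart, the usual form of a vitamin D response element, and 5 of 32851 windows did. Absence says only that these letters are not in these 250 bases.

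Sbsn shares a cluster on chromosome 7 with Dmkn (dermokine) and Krtdap, which also encode secreted proteins of differentiating keratinocytes. The brightest Dmkn probe read 31854.4 in KO and 30123.0 in CON, a log2 difference of 0.00. It held the same rank in both pools, with 8 probes brighter in each, and quantile normalization gives equal ranks equal values. Without normalization its ratio of KO to CON was 1.06. Krtdap read 17307.6 in KO and 18395.4 in CON, a log2 difference of -0.14. By brightest probe Sbsn thus had the lowest value of the 3 genes, while the dimmest Dmkn probe stood at -0.33. Other detected neighbours of members also stayed under the 1.5-fold limit. Psors1c2, next to Cdsn, stood at 0.37 with 1049.6 in KO and 822.3 in CON. Gmpr2 and Rabggta, on either side of Tgm1, stood at 0.08 and -0.24, Stk35 beside Tgm3 at -0.41, Mxd1 beside Asprv1 at -0.34, Lipe beside Cnfn at -0.39 and Srp68 beside Evpl at 0.04. The values of Stk35, Mxd1 and Lipe come from dim probes and were -0.13, -0.15 and -0.13 in the authors' normalized values.

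**Figure D2:**
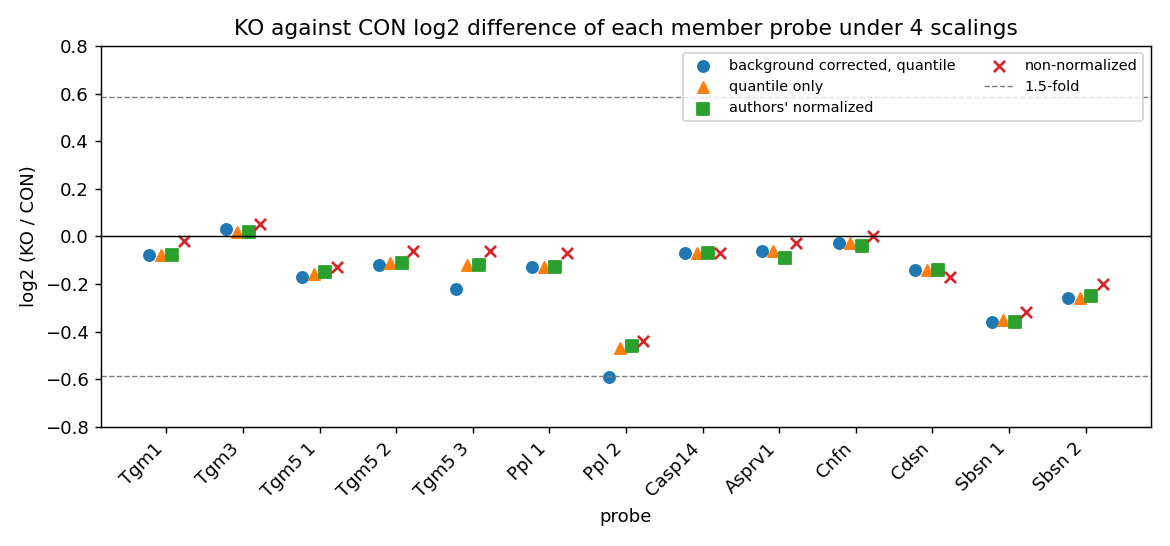
Log2 ratio of KO to CON for each of the 13 member probes under 4 scalings, with dashed lines at 1.5-fold. The second Ppl probe lies at -0.59 on the background-corrected scale and at -0.44 without normalization, and the first Sbsn probe between -0.36 and -0.32.

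The direction of the members was shared across scalings, which all start from the same 2 arrays and so are not separate evidence. Of 13 probes 12 lay below 0 on the background-corrected scale, in the authors' normalized values, without background correction and without normalization. After scaling to the 75th percentile 13 did, since Tgm3 stood just below 0, and 50.7% of detected genes did. Of detected genes 49.4% lay below 0 in the authors' normalized values, 49.5% without background correction and 36.9% without normalization, where their median was 0.05. Probes of 1 gene share a transcript and are not separate observations. All 3 members with several probes had every probe on the same side of 0.

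**Figure D3:**
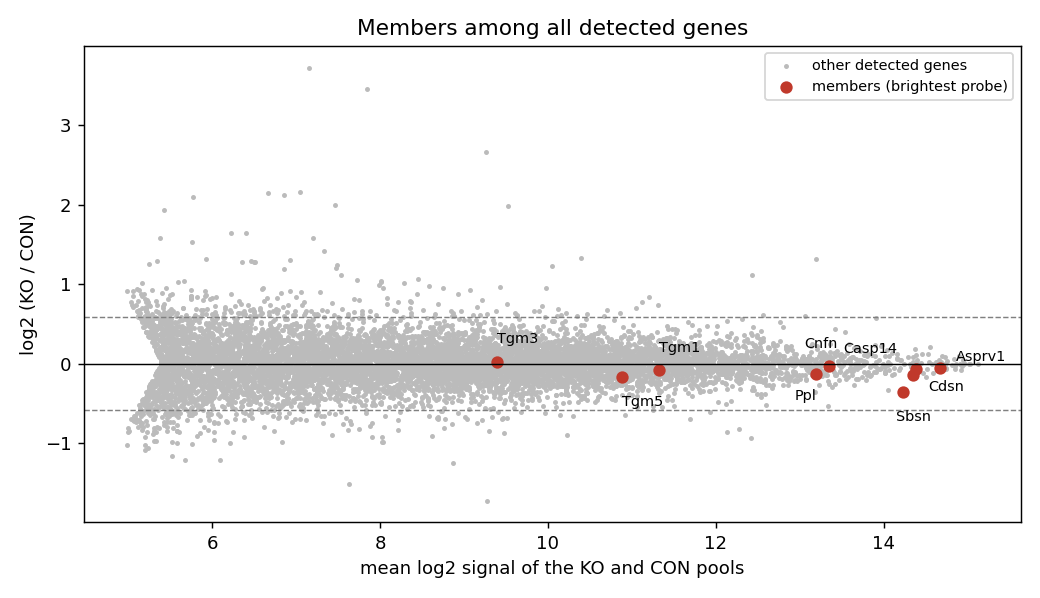
Log2 ratio of KO to CON against the mean log2 signal of both pools for all 8865 detected genes (grey) and the 9 measured members by their brightest probe (red), with dashed lines at 1.5-fold. The members lie between -0.36 (Sbsn) and 0.03 (Tgm3), inside the lines.

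The genes of the proteins that transglutaminases crosslink lay on both sides of 0. Of 29 detected envelope precursor genes 2 passed the rule as higher in KO, Sprr2d and Sprr1b, small proline-rich proteins induced in stressed epidermis, where 3.10% of detected genes were at least 1.5-fold higher. Sprr1b read 1398.4 in KO and 871.5 in CON, and Sprr2d 565.8 in KO and 366.6 in CON. In the authors' normalized values they were 1.52-fold and 1.45-fold higher, the second of these under the rule. Genes of this family are close copies, and whether the probes also read other copies was not tested. The list had 13 values above 0 and 15 below, with a median log2 difference of -0.02. Lor, the gene of loricrin, the most abundant envelope protein, stood at -0.05, and Ivl, the gene of involucrin, an early transglutaminase substrate, at -0.38 with 5608.5 in KO and 6967.8 in CON.

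Genes of the lipid envelope lay in the same direction as most members. Of 13 detected genes 12 had negative log2 differences, where 49.5% of all detected genes did, and their median was -0.17. Of the 13, 0 passed the rule, where 5.38% of all detected genes did. By brightest probe the lowest value was -0.33, for Sdr9c7, a dehydrogenase that acts on ceramides before they are bound to the envelope. Sdr9c7 read 917.9 in KO and 1094.3 in CON on that probe. Its second probe stood at -0.28, and a dimmer detected one at 0.48 with 232.6 in KO and 195.2 in CON, so its probes differed in direction. Other probes of Elovl1 stood at -0.56, -0.40 and -0.47, beside -0.20 on its brightest. Those of Smpd1 stood at -0.58 and -0.28, beside -0.26 on its brightest. Among 12 detected regulators of late differentiation 1 passed the rule, as lower, where 2.28% of detected genes did. It was Grhl3, a transcription factor known in mice to control Tgm1. Grhl3 read 475.3 in KO and 670.3 in CON, 1.62-fold lower, and 1.44-fold lower in the authors' normalized values, beside the log2 difference of -0.08 for Tgm1. The dimmer probe of Grhl1 stood past the rule at -0.68, beside -0.10 on its brighter one. The Klf4 probes stood at -0.06, 0.48 and -0.24.

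**Figure D4:**
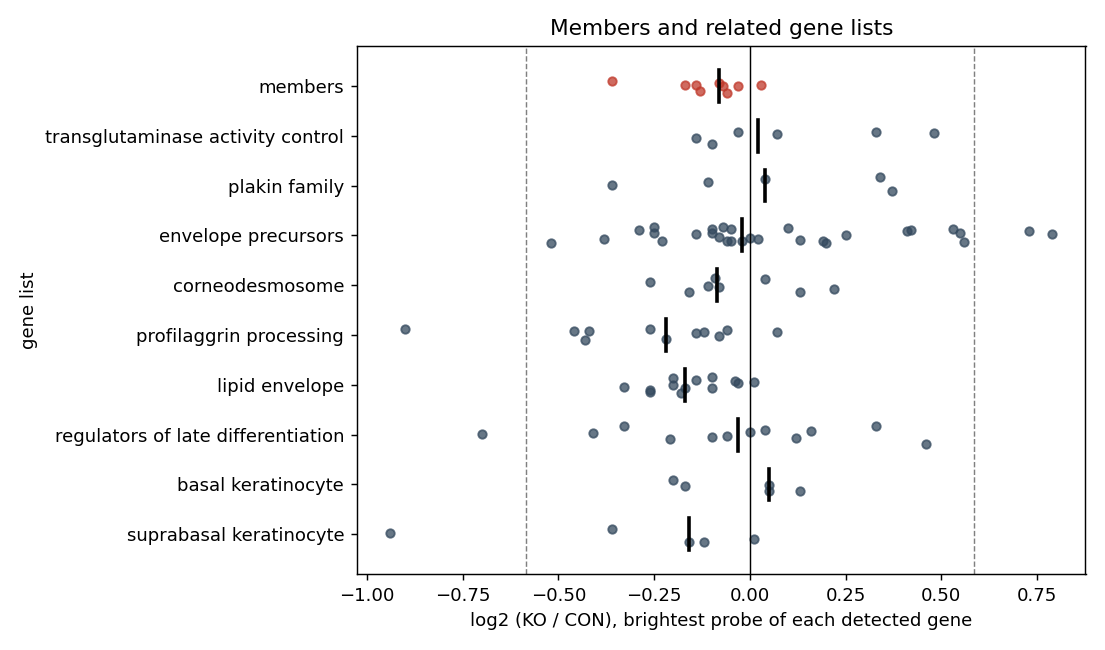
Log2 ratio of KO to CON for each detected gene (points) of the members, of 7 related gene lists and of the basal and suprabasal keratinocyte markers, with the median of each list as a black bar and dashed lines at 1.5-fold. The medians are -0.08 for the members, -0.22 for profilaggrin processing, -0.17 for the lipid envelope and -0.02 for envelope precursors. Some lists share genes.

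Checks of the pools bear on all values above. Summed raw signals, here and above, keep the background of each probe and are not scaled between the arrays. Without normalization the median log2 difference over all detected genes was 0.05, so the sums lean towards KO. The 3 Vdr probes read 2442.1 in KO and 1913.0 in CON, 1559.6 in KO and 1203.7 in CON, and 189.0 in KO and 193.0 in CON. Their log2 differences were 0.33, 0.37 and -0.23, so the bright probes read higher in KO. Whether any of them lies in the deleted exons is not stated, so they do not check the labels. Keratinocyte markers had summed raw signals of 86965.7 in KO and 83880.5 in CON for 6 basal genes and of 59857.5 in KO and 62568.3 in CON for 6 suprabasal genes. After normalization the median log2 difference was 0.05 over 5 detected basal genes and -0.16 over 5 detected suprabasal genes. The sums came mainly from keratins such as Krt14 and Krt10, while Krt2 and Dsc1 were dim and Itga6 and Dsg1a were detected in neither pool. Of the suprabasal markers Krt77 passed the rule, as 1.91-fold lower, with 4163.3 in KO and 7557.9 in CON. Endothelial and adipocyte markers were detected in neither pool (0 of 4 genes each). Of the T cell markers 4 of 4 measured were detected, with a median of 0.18, and of those of antigen-presenting cells 3 of 4, all but H2-Aa, with a median of 0.05. Skeletal muscle markers were dim, with summed signals of 908.1 in KO and 742.8 in CON, and 3 of 5 (Acta1, Myh8 and Myl1) passed the rule as higher in KO, where 3.10% of detected genes did. Acta1 and Myh8 were not detected in CON and were at least 1.04-fold and 1.53-fold higher, and in the authors' normalized values Myl1 alone passed. Sebocyte markers summed to 1542.3 in KO and 1792.1 in CON, and of 4 detected Mc5r passed as higher and Awat2, Plin2 and Scd3 as lower, where 2.28% of detected genes did. Scd3 was not detected in KO and gave no lower fold at its bound, and in the authors' normalized values Mc5r and Awat2 alone passed. The part of these cells in the members' values was not tested.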

How the data were processed

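RNA of 2 epidermal pools, labelled with biotin, was read on mouse bead arrays. The submitters' processing notes name GenomeStudio 2011.1. For 25697 probes the authors deposited non-normalized intensities, linear averages over beads, together with each probe's detection p-value. The authors also deposited normalized intensities, whose sorted signals agreed within 0.3 between arrays, as quantile normalization gives. The series matrix held the same values (0 probes differed by over 1e-09), with a median of 155.5 in KO and 155.5 in CON, so it is linear and not centred.

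These intensities were corrected and normalized with neqc (limma 3.58.1, R 4.3.3), which corrects background by a normal-exponential model from detection p-values, adds 16, quantile-normalizes and takes log2. Inferred background averaged 141.9 in KO and 137.9 in CON. In KO 11422 probes (44.4%) and in CON 11501 probes (44.8%) were detected at a p-value under 0.01. Later steps used Python 3.11.15, numpy 2.4.6, pandas 2.3.3 and matplotlib 3.10.9. Gene names were updated through RefSeq (GRCm38.p6), which named 25375 probes. A gene was represented by its brightest probe and called at 1.5-fold. The steps were also run on simulated arrays, with changes of 1.5-fold or more placed only in probes well above background. That run does not bear on changes in dim genes or on smaller changes.

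Groups followed the sample titles. The members and lists were chosen with earlier results of these data known. Lists overlapped and are not separate sets, since genes such as Dsp, Flg2, Capn1 and Klk5 were counted again in another list. All member probes were named. In each pathway list genes past 1.5-fold were named, or the largest value where none passed. Detected neighbours of members were named too. Further list genes were named for their role, after their values were seen. Alternatives changed background correction, scaling, offset, detection limit, probe choice and threshold.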

Additional observations from a re-analysis of the deposited data

How the results depend on the processing

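No member passed the 1.5-fold rule under any background correction, scaling, offset, detection limit or probe choice tried (brightest or mean). The dimmer Ppl probe on its own passed it on the background-corrected scale. By brightest probe 1 member (Sbsn) passed the looser limit of 0.32 (log2). The members' median stayed between -0.12 and -0.07, and 8 of 9 were negative in each setting but 75th percentile scaling, where 9 were. Ppl moved from its value of -0.13 to -0.36, past the looser limit, when both of its probes were averaged. Sbsn then stood at -0.31, short of that limit. The count over all genes depended on the processing. It was 477 of 8865 (57.7% higher in KO), 471 with 75th percentile scaling and 469 with probes averaged. It was 73 without background correction (68.5%), 63 in the authors' normalized signals (76.2%), 82 without normalization (84.1%) and 159 with an offset of 50 (64.2%). Other filters changed the number of genes too. They gave 299 of 8274 genes detected in both pools, 600 of 9957 at a detection limit of 0.05 and 614 of 17872 unfiltered. Among bright genes (log2 signal averaging 8 or more, an alternative chosen after seeing the data) it was 109 of 5106. With other thresholds it was 52 at 2-fold and 1913 at the looser limit. Of the related pathway genes 5 of 83 passed, where 5.38% of all detected genes did. Without background correction 2 of them passed, where 73 of 8865 detected genes did. Without normalization 2 of them passed, where 82 of 8865 detected genes did. In the authors' values 1 (Sprr1b) passed, where 0.711% of all detected genes did. Background kept in the signal shrinks the ratio of dim genes by construction. No paired analysis was possible because each genotype was 1 pool on 1 array, and no replicate could be left out.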

Other observations

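Dmkn, the neighbour of Sbsn, had 3 detected probes that did not read alike. The brightest read 31854.4 in KO and 30123.0 in CON, a log2 difference of 0.00, and the second 30842.9 in KO and 29668.2 in CON, a log2 difference of -0.02. The dimmest read 5723.6 in KO and 6904.9 in CON, a log2 difference of -0.33 (-0.34 in the authors' normalized values), close to the -0.36 and -0.26 of the Sbsn probes. Which Dmkn transcripts each probe reads is not stated in the files, and the brightest probes lay near the top of the array.

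Rptn, the gene of repetin, and S100a10, both counted among envelope precursors, stood just under the 1.5-fold limit on their brightest probes, at log2 differences of 0.55 and 0.56. Rptn read 2283.3 in KO and 1570.8 in CON on that probe, and its dimmer probe was past the limit at 0.89, with 389.5 in KO and 258.5 in CON. S100a10 read 727.5 in KO and 519.9 in CON. In the authors' normalized values the Rptn probes stood at 0.49 and 0.50 and S100a10 at 0.44. Both were chosen after their values were seen.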
